A study of Homo sapiens with 23 samples.

Results

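H3K4me1, the single methylation of lysine 4 on histone H3, marks enhancers and the flanks of promoters. The regions described here carried this mark in both replicate libraries and had no peak of H3K4me3, H3K27ac, H4K5acK8ac or H3K27me3 in any library. They were built by intersecting the H3K4me1 peak lists of both replicates, which gave 133813 intersection intervals, and keeping those that shared no base with an excluding peak. This left 40214 H3K4me1-only intervals, or 30.1% of all. The number depends on requiring both replicates: with every list from replicate 2 alone it was 112276. The intervals were thus chosen by the peak calls of these 5 marks, and their number, width and H3K4me1 strength are given as a description.

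Enhancers are thought to pass through a primed state, in which H3K4me1 is laid down by the MLL3 and MLL4 methyltransferases before the acetyltransferases p300 and CBP add H3K27ac. Enhancers with H3K4me1 and the Polycomb mark H3K27me3 are called poised, and those with H3K4me1 and H3K27ac active. H3K4me3 marks promoters, H3K36me3 is placed along transcribed gene bodies, and H3K9me3 marks heterochromatin. Acetylation of the histone H4 tail at lysines 5, 8 and 12 accompanies transcription, and BRD2, a BET protein, binds acetylated histone tails through its bromodomains.

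The data are chromatin immunoprecipitation followed by sequencing in NCI-H23, an established human non-small cell lung cancer line. The series holds 23 samples, of which 22 are immunoprecipitated libraries, 2 for each of BRD2 and 10 histone marks, and 1 is an input library not analysed here. All groups share the cell line and differ in the antibody: H4K5acK8ac, H3K27ac and H3K4me3 were read with mouse monoclonal antibodies, and the other marks and BRD2 with antibodies labelled rabbit polyclonal. The protocol names 500 nM of the BET inhibitor JQ1 or its solvent DMSO for 24 h, but no label says which library received which, and none says whether replicates were separate cultures. The files are peak lists, which hold between 21580 (H3K4me3 replicate 1) and 277462 peaks (H3K27me3 replicate 2) and carry no read numbers, so depth is unknown. Coordinates are in hg19, the build named in the submitters' processing notes. No gene annotation or genome sequence of that build was used here, so genes and sequences are not given.

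Replicate libraries of H3K4me1 were unequal. Replicate 1 had 141240 peaks covering 95.8 Mb and replicate 2 had 204854 peaks covering 194.8 Mb. Of the replicate 1 peaks 92.9% met a replicate 2 peak, and 45.9% in the other direction, so the intersection is close to the replicate 1 list cut to the edges of replicate 2.

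H3K4me1-only intervals were narrow. Their median width was 309 bp, with a range of 1 to 4995 bp, and they covered 15.2 Mb in all. The 61266 acetylated intervals, defined as those with H3K27ac or H4K5acK8ac and without H3K4me3 or H3K27me3, had a median of 492 bp, and all intersection intervals a median of 441 bp. Widths under 200 bp were found for 5447 H3K4me1-only intervals (13.5%), and widths of 1000 bp or more for 1168 (2.90%), against 20.8% of the acetylated intervals. Single H4 acetylation and BRD2, described further on, were met more often by wider intervals, and H3K9me3 at H3K4me1-only intervals less often. Shares are therefore also given at interval midpoints, where each interval counts as 1 base.

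H3K27ac did most of the excluding. It overlapped 81614 of the intersection intervals (61.0%) and was the only excluding mark at 28901. H4K5acK8ac, the tail acetylated at lysine 5 and lysine 8 together, overlapped 55923 (41.8%) and was the only such mark at 4108. H3K4me3 overlapped 31220 and H3K27me3 3977. H3K27me3 without acetylation or H3K4me3 was found at 904 intervals. Just inside the rule, 2493 H3K4me1-only intervals had an excluding peak within 100 bp, and their median width was 287 bp. Just outside it, 4218 intervals were left out over fewer than 100 shared bases, and their median width was 247 bp.

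H3K4me1 itself was weak at these intervals. The authors' fold enrichment of the H3K4me1 peak had a median of 3.28 in replicate 1 and 4.77 in replicate 2, against 3.93 and 7.18 at acetylated intervals. The median −log10 q was 2.96 and 12.2, against 4.21 and 26.3. Classing each interval by the lower −log10 q of its pair of peaks, H3K4me1-only intervals made up 52.1% of those under 1.3, which is a q above 0.05. Their share was 40.6% at 1.3 to 5, 16.5% at 5 to 10, 3.66% at 10 to 20 and 0.184% (7 of 3802) at 20 or more. The share of intervals with H3K4me3 went the other way, from 8.53% to 51.3%. A −log10 q of at least 5 in both replicates was reached by 5839 H3K4me1-only intervals (14.5%).

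**Figure D1:**
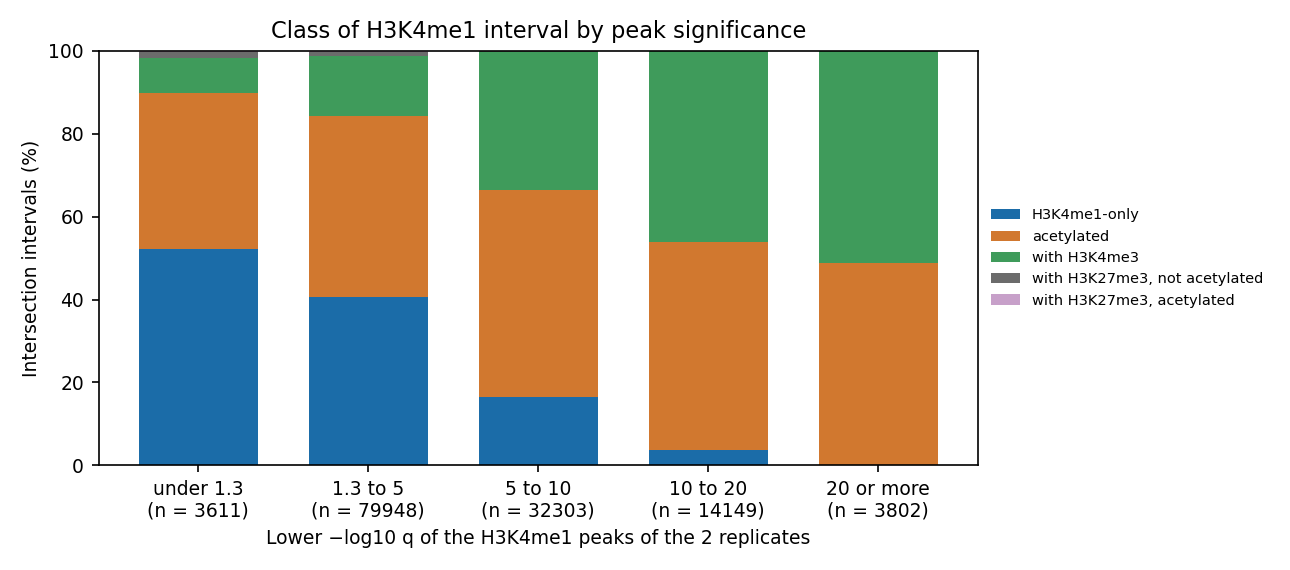
Share of intersection intervals in each class (stacked bars, percent) by the lower −log10 q of the H3K4me1 peaks of both replicates; n is the number of intervals. The blue H3K4me1-only part falls from 52.1% in the weakest bin to 0.184% in the strongest; intervals with H3K4me3 are in 1 class whatever else they carry.

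Part of the set lay in larger H3K4me1 peaks that held acetylation, mostly in replicate 2. In replicate 2, 11220 H3K4me1-only intervals (27.9%) lay in an H3K4me1 peak that overlapped H3K27ac or H4K5acK8ac elsewhere along its length. In replicate 1 this held for 720 (1.79%), and in either library for 11706 (29.1%). The other 28508 lay in H3K4me1 peaks free of both. The summit of the replicate 1 peak lay inside the interval in 88.9% of cases and that of the replicate 2 peak in 46.7%. For acetylated intervals these shares were 96.2% and 53.0%. The intervals in an acetylated H3K4me1 peak had a median of 438 bp to the nearest H3K27ac peak of either library, against 4170 bp for the rest.

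The 5 intervals with the strongest H3K4me1, ranked by the lower −log10 q of the pair of libraries, show both kinds. The first, chr7:150708712-150708727, is 16 bp long, lies 47 bp from H3K27ac, and its H3K4me1 peaks hold acetylation in both replicates, so it is a remnant of an acetylated peak. The second, chr6:111202359-111204917, had −log10 q of 29.8 and 61.1 over 2559 bp, at 154 bp from H3K27ac. The third, chr1:204079660-204081126, had 21.6 and 44.5 over 1467 bp. For both of these the replicate 2 H3K4me1 peak held acetylation. The remaining pair lay on chromosome 2 in H3K4me1 peaks free of acetylation. At chr2:10036532-10038561 the H3K4me1 fold enrichment was 8.64 in replicate 1 and 11.5 in replicate 2, the nearest H3K27ac peak was 15960 bp away, and no compared target had a peak. At chr2:28980122-28982197 the fold enrichment was 7.93 and 12.3, H3K27ac was 3916 bp away, and H3K36me3 was present in both libraries at a fold enrichment of 3.01 and 3.14.

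The 3 widest intervals differed in gene-body marking. The widest, chr17:27262706-27267700, spanned 4995 bp with H3K36me3 in both libraries (fold enrichment 5.13 and 6.51) and a weak H4K12ac peak in replicate 2. The next, chr12:116701142-116705666, spanned 4525 bp with no peak of any compared target, and it belonged to a group of 58 H3K4me1-only intervals. The third, chr1:43153075-43157375, spanned 4301 bp with H3K36me3 at a fold enrichment of 7.87 and 6.73.

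Most H3K4me1-only intervals lay within 20 kb of H3K27ac. The median gap to the nearest H3K27ac peak was 3122 bp in replicate 1 and 3893 bp in replicate 2 (mean 3507 bp ± 545, SD, n = 2). It was 6264 bp with every list from replicate 2 alone, and 6874 bp when intervals within 1000 bp of an excluding peak were also left out. A gap of at most 1000 bp was found for 24.4% and 21.8%, and one of at most 20 kb for 82.9% and 82.5%. The H3K27me3 intervals, which also lack acetylation by rule, lay farther away, with medians of 113270 bp and 73472 bp (mean 93371 bp ± 28141, SD, n = 2). H3K27ac peaks were used to choose both sets, so these distances are a description. Only 834 H3K4me1-only intervals (2.07%) were 100 kb or more from H3K27ac of either library. The 3 farthest were single intervals of 147 to 252 bp, at chr17:51638335-51638481 (1339297 bp away), chr2:77212530-77212781 (1273755 bp) and chr5:12094554-12094753 (1156630 bp), the last with an H3K9me3 peak in replicate 1. Their H3K4me1 was weak, with a −log10 q of 0.899, 2.12 and 3.05 in replicate 1. The gap to H4K5acK8ac had medians of 8272 and 8358 bp, that to H3K4me3 16538 and 16361 bp, and that to H3K27me3 74005 and 69431 bp. These lists differ in length, which bears on the order of the gaps.

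**Figure D2:**
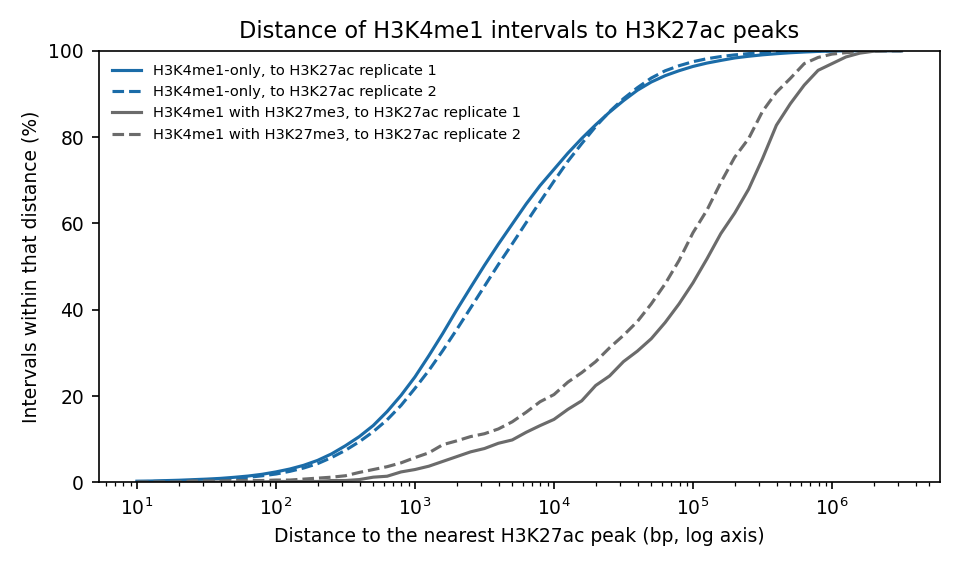
Cumulative share of intervals (percent) by distance to the nearest H3K27ac peak (bp, log axis); solid and dashed lines are H3K27ac replicates 1 and 2. The H3K4me1-only curves reach 82.9% and 82.5% at 20 kb, where the H3K27me3 intervals reach 22.5% and 27.99%.

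The intervals were grouped along the genome. The nearest other H3K4me1-only interval was a median of 2301 bp away, and 70.1% had one within 10 kb. Joining intervals over gaps of up to 10 kb gave 12033 singles (29.9% of the intervals) and 7434 groups of at least 2. The 1505 groups of at least 5 held 13230 intervals (32.9%) and had a median span of 17811 bp. An H3K27ac peak lay within the span of 1132 of these groups (75.2%). How often other spans of that length hold one was not tested. The nearest intersection interval of any class was another H3K4me1-only one in 54.9% of cases, although these made up 30.1% of all intervals. It was an acetylated one in 28.8%, although acetylated intervals made up 45.8% of all. Acetylated intervals had an acetylated nearest neighbour in 71.2% of cases. A single H3K4me1 peak can give several intervals, and the part this plays in the grouping was not tested.

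The 3 largest groups were unlike one another in acetylation and in gene-body marking. The group of 65 intervals at chr8:131254590-131389860 spanned 135 kb together with 19 acetylated intervals and 15 and 14 H3K27ac peaks. H3K36me3 overlapped 41 of its 65 intervals in replicate 1 and 32 in replicate 2. The group of 58 at chr6:15250578-15404797 spanned 154 kb with 9 acetylated intervals, and H3K36me3 overlapped 3 and 2. The group of 58 at chr12:116608158-116712109 spanned 104 kb with 1 acetylated interval and 0 and 1 H3K27ac peaks. In that group H3K36me3 overlapped 0 and 2 intervals, and none of the 6 single H4 acetylation lists had a peak at any of the 58.

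The remaining readouts were not used to choose the intervals. With 2 libraries per target an exact permutation test cannot reach 0.05, and intervals are not replicates, so differences are given with the SD between libraries and no test. Wilson 95% intervals treat intervals as independent and cover counting error only.

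Marks of transcribed bodies were common. H3K36me3 overlapped 10854 H3K4me1-only intervals in replicate 1 (26.99%, Wilson interval 26.6% to 27.4%) and 10466 in replicate 2 (26.0%, 25.6% to 26.5%). The background over all intersection intervals was 27.6% and 26.9%, so these shares are near it. Acetylated intervals had 33.0% and 32.2%. The difference was -6.09 percentage points ± 0.180 (SD, n = 2) and -3.94 ± 0.181 for interval midpoints. It rests on how the replicates are combined: with every list from replicate 1 alone it was -13.0 points, and with every list from replicate 2 alone 0.515 points, with the opposite sign. It was -3.95 points where H3K4me1 reached a −log10 q of 5 in both libraries, and -10.04 with the exclusion extended by 1000 bp. That extension also enlarged the acetylated set. In bases, H3K36me3 covered 22.5% and 21.6% of the H3K4me1-only sequence, and 6.91% and 6.69% of the chromosome span from first to last peak, a ratio of 3.25 and 3.23. H3K27me3 intervals had H3K36me3 at 4 of 904 in each library (0.442%).

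H3K9me3 was scarce. It overlapped 210 H3K4me1-only intervals (0.522%) in replicate 1 and 264 (0.656%) in replicate 2, against a background of 1.58% and 1.82%. Acetylated intervals had 2.02% and 2.33%, a difference of -1.59 percentage points ± 0.127 (SD, n = 2). For midpoints it was -0.709 points, and with every list from replicate 2 alone -3.67. H3K27me3 intervals had 11.5% and 11.7%. Of the H3K4me1-only bases 0.271% and 0.390% were covered, which is 0.0650 and 0.0682 times the share of the chromosome span that H3K9me3 covers. Both libraries called it at 123 intervals, against a background of 1.04% of all intervals. Of those 123, 62.6% and 64.2% also had H3K36me3, more than among all H3K4me1-only intervals. This overlap was frequent at other H3K4me1 intervals too. Counting either library for both marks, H3K36me3 met 208 of 351 H3K4me1-only intervals with H3K9me3. It met 975 of 1868 such acetylated intervals and 1443 of 3159 over all intersection intervals.

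The intervals with the strongest calls of these marks, ranked by the lower −log10 q of both libraries, illustrate the mixture. At chr6:28111803-28112152 H3K36me3 reached a fold enrichment of 26.2 and 22.4, beside H3K9me3 at 3.33 and 2.88 and H3K4me1 at 2.76 and 3.07. The next in rank, chr14:56081246-56081761 and chr14:56082398-56082644, lay under the same H3K36me3 peak, with a fold enrichment of 21.9 and 21.3. For H3K9me3 the first by that rank was chr11:69175266-69175751, with a lower −log10 q of 19.8, a fold enrichment of 5.94 and 5.72, no H3K36me3, H4K8ac in both libraries and H4K5ac in replicate 1. Next were chr14:65008714-65009160, with a lower −log10 q of 16.8 but a higher fold enrichment of 7.36 and 6.65, beside H3K36me3 at 3.30 and 3.21, and chr7:157668043-157668299, with 15.5 and a fold enrichment of 7.13 and 6.82 beside an H4K12ac peak in replicate 2.

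Single H4 acetylation was far less frequent than at acetylated intervals, though not absent. H4K5ac overlapped 6.08% of the H3K4me1-only intervals in replicate 1 and 5.88% in replicate 2, against a background of 40.5% and 40.1%, and 49.3% and 48.8% at acetylated intervals. H4K8ac overlapped 9.03% and 4.68%, with a background of 34.5% and 23.2%, and 42.2% and 28.6% at acetylated intervals. H4K12ac overlapped 4.20% and 3.54%, with a background of 29.9% and 27.5%, and 30.9% and 27.2% at acetylated intervals. A peak of any of the 3 marks was found at 15.0% and 11.5%, against a background of 50.8% and 46.6%. The difference from acetylated intervals was -46.2 percentage points ± 1.61 (SD, n = 2), and -36.8 ± 1.89 for midpoints. The groups did not overlap for any of the 3 marks. H4K5acK8ac, which the rule excluded, reads the same tail, so these readouts are not fully independent of the rule.

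The difference held within classes of width. Among intervals from 200 to under 400 bp, any single H4 mark was found at 14.3% and 10.8% of the H3K4me1-only and at 52.5% and 45.0% of the acetylated intervals. Among those of 800 bp or more it was found at 17.7% and 15.5%, against 77.7% and 74.0%. H3K4me1 strength was also compared. Measured at midpoints, any single H4 mark was found at 9.405% and 5.15% of the weakest intervals, with a −log10 q under 1.3, and at 10.3% and 9.52% of the 525 with 10 or more. In replicate 1 these classes thus lay close together, and in replicate 2 the share was higher at each step of strength. At acetylated intervals the shares were 36.8% and 29.1% in the weakest and 66.1% and 64.3% in the strongest class.

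**Figure D3:**
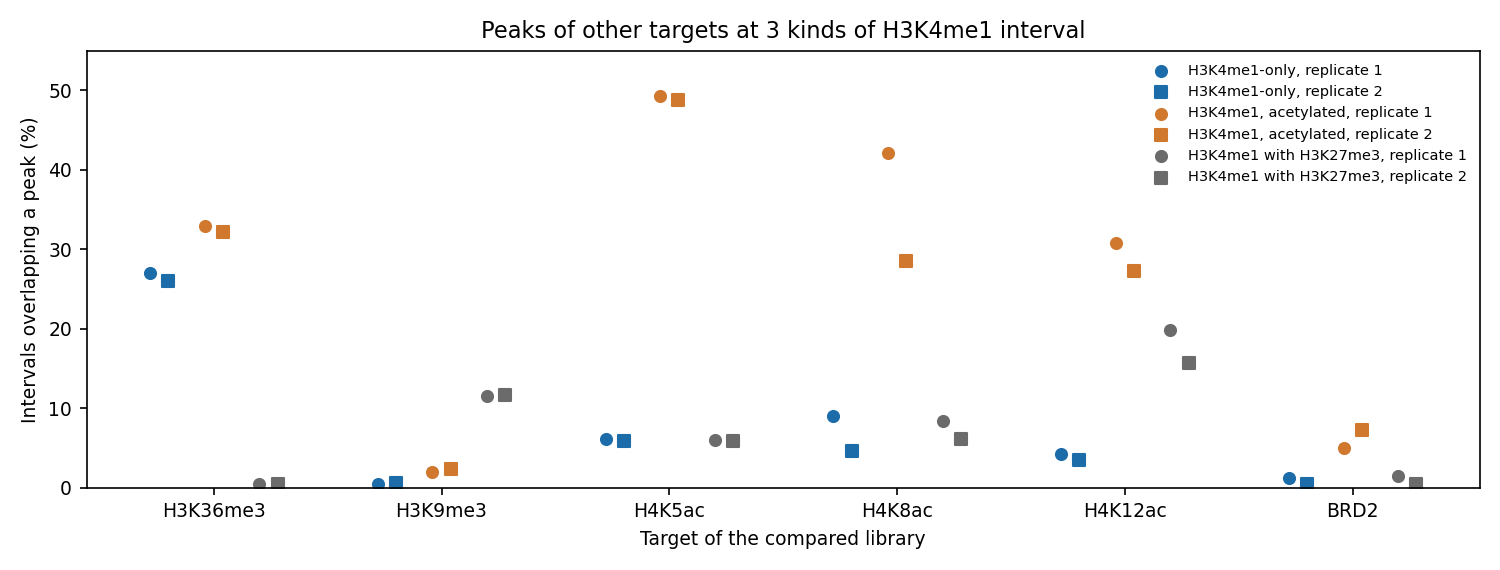
Share of intervals overlapping a peak (percent) for each compared library; circles are replicate 1 and squares replicate 2, colours the 3 kinds of H3K4me1 interval. H4K5ac lies at 6.08% and 5.88% for H3K4me1-only and at 49.3% and 48.8% for acetylated intervals, while H3K36me3 is common at both and near 0 with H3K27me3.

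Calls of H4 acetylation at H3K4me1-only intervals were weak and seldom shared by both libraries. H4K5ac was called in both libraries at 781 (1.94%, background 33.5%), which is 19.4% of those with it in either, against 67.8% at acetylated intervals. For H4K8ac the shares called in both were 15.3% and 45.0%, and for H4K12ac 13.2% and 50.2%. At H3K27me3 intervals these shares were low too, at 16.3% for H4K5ac, 13.9% for H4K8ac and 18.9% for H4K12ac. H4K5ac peaks at H3K4me1-only intervals had a −log10 q of at least 5 in 5.58% and 8.14% of cases, against 30.6% and 33.4% over the whole lists. For H4K12ac this was 3.68% and 1.77%, against 22.6% and 20.1%. No single H4 peak from any of the 6 libraries was found at 31988 H3K4me1-only intervals (79.5%, background 43.1%), so the description as unacetylated holds there for every acetylation list, while the other 8226 had a peak of at least 1 single H4 mark. All 3 marks in both libraries were found at 25 (0.0622%, background 13.1%). H4K8ac alone was found at 2551 (6.34%, background 5.32%), H4K5ac alone at 1831 (4.55%, background 9.08%) and H4K12ac alone at 1139 (2.83%, background 2.81%). As the only single H4 mark, H4K12ac was thus near the background and H4K8ac somewhat above it. At acetylated intervals the same shares were 6.75% for H4K8ac, 13.0% for H4K5ac and 2.33% for H4K12ac. H4K8ac alone was thus not more frequent at H3K4me1-only than at acetylated intervals.

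Against the rest of the genome the answer depends on what it is set beside. H4K5ac covered 3.19% and 3.09% of the H3K4me1-only bases, 1.32 and 1.28 times its share of the chromosome span. The span includes the acetylated chromatin that the rule removed. Set beside the bases outside all excluding peaks, where H4K5ac covered 0.423% and 0.410%, the ratio was 7.54 in both libraries. The same ratio was 2.73 and 3.96 for H4K8ac, 6.41 and 5.53 for H4K12ac, 2.20 and 2.07 for BRD2, 3.46 and 3.45 for H3K36me3, and 0.0876 and 0.0889 for H3K9me3. So single H4 acetylation and BRD2 covered more of the H3K4me1-only bases than of other chromatin free of the excluding marks, and less than of acetylated H3K4me1 intervals.

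**Figure D4:**
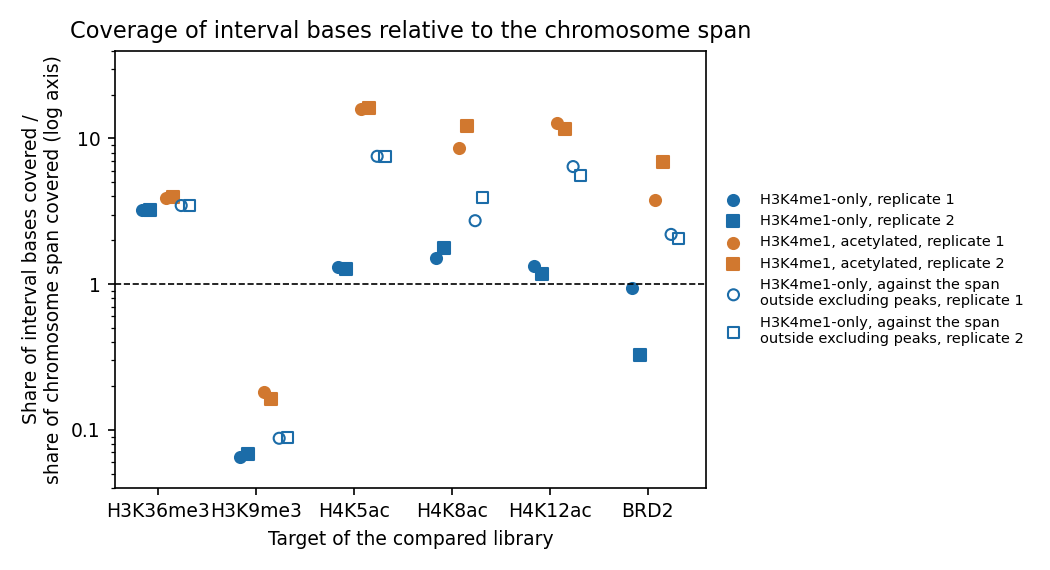
Share of interval bases covered by each compared list, divided by the share of the chromosome span it covers (log axis; the dashed line is a ratio of 1); open symbols divide by the share outside the excluding peaks. H4K5ac at H3K4me1-only intervals moves from 1.32 and 1.28 to 7.54, acetylated intervals lie at 16.0 and 16.2, and H3K9me3 lies below 1 for both kinds of interval plotted.

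The 3 intervals with the strongest H4 acetylation, ranked by the lowest fold enrichment over all 6 libraries, were single ones. At chr20:20805329-20805799 H4K5ac had a fold enrichment of 7.36 and 8.83, H4K8ac 4.13 and 3.69, and H4K12ac 5.01 and 4.07, with H3K27ac 61 bp away. At chr17:42843741-42844306 these values were 3.28 and 3.26, 3.78 and 4.64, and 3.28 and 4.02, with H3K27ac 568 bp away. At chr1:3407533-3407887 they were 3.29 and 3.77, 3.91 and 3.16, and 3.04 and 3.42, and the nearest H3K27ac peak lay 7948 bp away. None of the 3 had a BRD2 peak.

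BRD2 was scarce beside acetylated intervals and all intersection intervals, but not beside H3K27me3 intervals, which had it at 1.55% and 0.442%. It overlapped 496 H3K4me1-only intervals in replicate 1 (1.23%, Wilson interval 1.13% to 1.35%) and 212 in replicate 2 (0.527%, 0.461% to 0.603%), against a background of 6.94% and 10.5%. Acetylated intervals had 4.95% and 7.30%, a difference of -5.24 percentage points ± 2.16 (SD, n = 2). For midpoints the difference was -2.08 ± 1.35, and where H3K4me1 reached a −log10 q of 5 in both libraries -10.1. It was smaller among narrow intervals, and fewer of the H3K4me1-only intervals were wide. From 200 to under 400 bp BRD2 was found at 1.05% and 0.531% of the H3K4me1-only and 1.92% and 2.55% of the acetylated intervals. At 800 bp or more it was found at 2.44% and 0.841%, against 11.1% and 16.5%. In bases BRD2 covered 0.457% and 0.199% of the H3K4me1-only sequence, 0.947 and 0.326 times its share of the chromosome span. Outside the excluding peaks it covered 0.208% and 0.0962%, so against that chromatin the H3K4me1-only share was higher, by ratios of 2.20 and 2.07. The BRD2 peaks concerned were weak: 79.2% of the 490 in replicate 1 and 54.1% of the 207 in replicate 2 had a q above 0.05, and 0 in either library reached a −log10 q of 5. Of 703 intervals with BRD2 in either library (background 12.7%) 5 had it in both (0.711%), against 23.2% at acetylated intervals. These 5 are 0.0124% of the H3K4me1-only intervals, beside a background of 4.74%.

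The 5 intervals with BRD2 in both libraries differed in the other compared marks. The strongest, chr20:32633738-32634024, had BRD2 at a fold enrichment of 3.36 and 3.67, H3K36me3 at 4.62 and 4.71, and an H4K12ac peak in replicate 2. At chr2:207095028-207095344 BRD2 had 3.34 and 3.57 and at chr2:139257564-139257889 3.24 and 3.93, with no other compared mark. At chr20:55795826-55796386 it had 2.74 and 2.97, beside H4K8ac in both libraries at 3.13 and 2.57 and H4K5ac in replicate 1. At chr3:128212324-128213283 it had 2.94 and 2.58, with no other compared mark. A single H4 mark in either library was thus present at 2 of the 5, whereas at acetylated intervals it was present at 1412 of 1413 with BRD2 in both. The BRD2 −log10 q of the 5 lay between 0.513 and 2.25. In the order given, they lay 323, 19387, 670, 775 and 1459 bp from the nearest H3K27ac peak of either library. The median over all H3K4me1-only intervals was 2186 bp, so all but chr2:207095028-207095344 lay nearer than that. At chr20:32633738-32634024, chr2:139257564-139257889 and chr3:128212324-128213283 the replicate 2 H3K4me1 peak held acetylation.

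Marking differed with distance from H3K27ac, taken as the nearest peak of either library. H3K36me3 was found at 35.7% and 34.8% of the 13048 H3K4me1-only intervals within 1 kb. It was found at 32.4% and 31.1% of those at 1 to 5 kb, 17.0% and 16.3% at 5 to 20 kb, 6.44% and 5.77% at 20 to 100 kb, and 0.360% and 0.480% at 100 kb or more. It was lower at every step in both libraries. H4K12ac went the other way beyond 5 kb, from 3.14% and 2.78% at 1 to 5 kb to 9.71% and 8.03% at 100 kb or more. At midpoints these H4K12ac shares were 1.87% and 1.56%, and 7.19% and 4.68%. H4K5ac showed no such course, with 6.68% and 6.57% within 1 kb and 6.24% and 5.40% at 100 kb or more. BRD2 stayed between 1.19% and 1.32% in replicate 1 and between 0.399% and 0.920% in replicate 2. The median −log10 q of H3K4me1 in replicate 2 fell over the same bins from 17.7 to 6.60, and the part played by H3K4me1 strength was not tested.

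**Figure D5:**
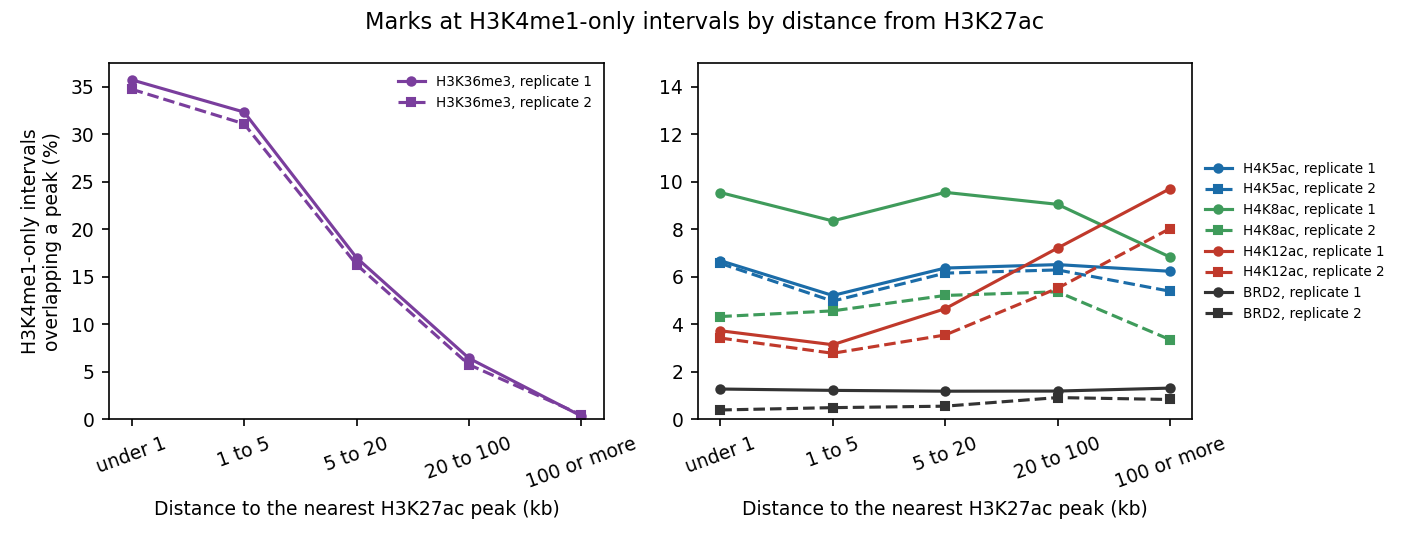
Share of H3K4me1-only intervals overlapping a peak (percent) by distance to the nearest H3K27ac peak (kb); solid lines are replicate 1, dashed lines replicate 2. H3K36me3 (left) falls from 35.7% and 34.8% to 0.360% and 0.480%, and H4K12ac (right) is highest at 100 kb or more, with 9.71% and 8.03%.

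Among the single H4 marks, H4K12ac differed most between the H3K4me1-only and the H3K27me3 intervals. At the latter it overlapped 19.8% and 15.7%, against 4.20% and 3.54% at H3K4me1-only intervals, a difference of -13.9 percentage points ± 2.43 (SD, n = 2) for H3K4me1-only minus H3K27me3 intervals. H4K5ac was at 5.97% and 5.86% there, lower than the H3K4me1-only share by 0.111 percentage points in replicate 1 and 0.0182 in replicate 2. H4K8ac, at 8.41% and 6.08%, was lower in replicate 1 and higher in replicate 2.

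H3K36me3 divided the H3K4me1-only intervals. Both libraries called it at 8775 (21.8%, near the background of 23.6%), 1 of them at 3770 and neither at 27669. Either library called it at 12545 of 40214, beside 41248 of all 133813 intersection intervals. The split is therefore close to that of all intersection intervals. Any single H4 mark was found at 6.62% and 4.68% of the 8775 and at 18.7% and 14.3% of the 27669. H4K5ac alone of the 3 gave 1.81% and 1.56% against 7.94% and 7.72%. BRD2 differed less, with 1.06% and 0.547% against 1.27% and 0.535%. The intervals with H3K36me3 lay nearer to H3K27ac, with a median of 1205 bp against 3014 bp, and 39.1% of them were in groups of at least 5, against 28.8%. The lower H4 acetylation was seen both within 5 kb of H3K27ac (6.87% and 4.78%, against 19.0% and 14.4% without H3K36me3) and farther away (5.08% and 4.08%, against 18.4% and 14.1%).

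Grouping along the chromosome went with less acetylation too. Any single H4 mark was found at 22.1% and 17.4% of the single intervals and at 6.70% and 5.17% of those in groups of at least 5. Without H3K36me3 these shares were 25.1% and 20.05% for single intervals, and 7.89% and 5.92% for grouped ones. Grouped intervals were somewhat wider, with a median of 340 bp against 290 bp. Intervals inside and outside acetylated H3K4me1 peaks were closer in acetylation: 16.5% and 12.02% of the 11706 such intervals had a single H4 mark, against 14.4% and 11.2% of the other 28508. H3K36me3 was more frequent among the former, at 34.9% and 33.8% against 23.8% and 22.8%.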

How the data were processed

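Chromatin immunoprecipitation libraries of NCI-H23 cells were deposited as 22 peak lists in narrowPeak layout, 1 per library. Per the submitters' processing notes BWA and MACS2 were used with build hg19; versions, settings, control and filters are not given in the sources used here. Each deposited peak carries a fold enrichment (a ratio over local background), a −log10 p, a −log10 q and the summit's offset; the deposited score, derived from p, was left aside. The lowest −log10 p was about 2 in every list, so weak peaks are included.

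Groups and replicate numbers came from the sample titles. For H3K9me3 replicate 2 the title was followed, although its description says R3. Lists were used whole, without 19 mitochondrial peaks. Overlap means at least 1 shared bp. Enrichment and q values are the authors' and were given per list, except where the lowest over several lists ranked or classed an interval. Shares were computed per library and given as mean ± SD over 2 libraries; no test was made. Python 3.11.15, numpy 2.4.6, scipy 1.17.1, pandas 2.3.3 and matplotlib 3.10.9 were used, and the interval functions were tested on simulated data. Named intervals follow a rule: the 5 with the strongest H3K4me1, the 3 widest, the 3 largest groups, the 5 strongest with BRD2 in both libraries, the 3 strongest with all single H4 marks, the 3 farthest from H3K27ac, and the 3 strongest each for H3K36me3 and H3K9me3. The intervals, lists and comparisons were chosen with earlier results of these data known. Alternatives varied thresholds, reach of exclusion, overlap, width and replicates.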

Additional observations from a re-analysis of the deposited data

How the results depend on the processing

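Of 56 values under other settings, 31 stayed within 1 SD of the libraries (counts: within 1.5 times), 24 moved by more and 1, for H3K36me3, changed sign. Requiring a −log10 q of at least 5 for H3K4me1 left 5839 intervals; the differences from acetylated intervals were then -3.95 (H3K36me3), -1.87 (H3K9me3), -56.1 (single H4 acetylation) and -10.1 percentage points (BRD2), and the median distance to H3K27ac 2758 bp. Extending the exclusion by 1000 bp left 24337 intervals, with -10.04, -1.27 and -40.1 points for H3K36me3, H3K9me3 and single H4 acetylation, and 6874 bp. The extension also changed the acetylated set, from 61266 to 67164 intervals. Its mean single H4 share went from 59.4% to 52.2%, and that of H3K4me1-only intervals from 13.2% to 12.1%. Midpoints gave -3.94, -0.709, -36.8 and -2.08 points in the order above, and a minimum width of 200 bp gave -5.63 for H3K36me3. Leaving out a replicate takes every list, H3K4me1 included, from the other: counts ran from 58588 (without replicate 2) to 112276 (without replicate 1), distances from 3522 to 6264 bp, H3K36me3 from -13.0 to 0.515, H3K9me3 from -3.67 to -1.28, single H4 acetylation from -46.8 to -45.9 and BRD2 from -6.99 to -4.50 points. Without replicate 1 the H3K36me3 difference thus reversed to 0.515, and the whole replicate 2 peaks were compared rather than intersections. The cause of these changes was not tested.

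Peak numbers gave little sign of a pairing of libraries by replicate number. Over 55 pairs of targets, deviations in peak number per 100000 bp correlated between -0.242 and 0.355, and 2 exceeded 0.1. This measure cannot show whether libraries of the same number shared a culture or batch. With the replicate block, each number read on its own, the count was 85432 ± 37963 and the distance 4893 bp ± 1939 (SD, n = 2). The differences were -6.25 ± 9.56 (H3K36me3), -2.48 ± 1.69 (H3K9me3), -46.3 ± 0.589 (single H4 acetylation) and -5.75 ± 1.76 points (BRD2). The SD of 0.180 for H3K36me3 over the fixed intervals leaves this spread between replicates out. Depth is unknown, so an interval without a peak may carry a mark below what that library could call.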

Other observations

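The share of intersection intervals that were H3K4me1-only was even over most of the genome. Over the 22 autosomes it had a median of 30.8% and a maximum of 34.6%, on chromosome 2. Chromosome 19 stood apart at 15.6% (940 of 6026), with the next lowest, chromosome 20, at 26.6%. Chromosome 19 had H3K4me3 at 37.9% of its intersection intervals, against 23.3% over all chromosomes, and the median distance of its H3K4me1-only intervals to H3K27ac was 971 bp, the shortest of the autosomes. The share of H3K4me1-only intervals with H3K36me3 ran from 21.3% to 33.4% over the autosomes in replicate 1 and from 20.3% to 32.6% in replicate 2.

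No peak of H3K36me3, H3K9me3, the single H4 marks or BRD2 in either library was found at 20344 H3K4me1-only intervals (50.6%, beside 25.3% of all intersection intervals). For these 20344, H3K4me1 was the only mark of the series called. The H3K27me3 intervals lacked all compared targets about as often, at 465 of 904 (51.4%).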
